A study of Rattus norvegicus with 6 samples.

Results

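The members of the miR-17-92 and miR-106b-25 clusters were followed in small RNA libraries of exosomes, the small vesicles that cells release. The members were chosen by name. From miR-17-92 they were, in transcript order, miR-17-5p, miR-18a-5p, then miR-19a-3p, miR-20a-5p, miR-19b-3p and miR-92a-3p. From miR-106b-25 they were miR-106b-5p, miR-93-5p and miR-25-3p. All 9 names were found among the 763 rat miRNAs listed, and 5 of the 9 had a read in at least 1 library. The exosomes came from the culture supernatant of wild-type rat mesenchymal stem cells (MSCs, the cells labelled RBMSC). One group of 3 libraries came from MSCs without pretreatment. In the other group of 3 libraries the MSCs had received 200 µM of nicorandil over 24 h. Nicorandil is a drug against angina that releases nitric oxide and opens potassium channels of the ATP-sensitive type. The comparison addressed how this pretreatment changes the miRNA content of the exosomes. Nothing in the labels states that libraries of 1 group stem from separate cultures, so the spread behind the p-values may be technical.

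Each cluster is transcribed as 1 primary transcript that is cut into several hairpins, and each hairpin yields a mature miRNA from either arm. miR-17-92 is known as an oncogenic cluster that MYC induces and that supports proliferation and survival. miR-106b-25 is its paralogue in an intron of Mcm7, a DNA replication gene. A miRNA finds its targets mainly through its seed, bases 2 to 8, so members that share a seed share many predicted targets even when they come from different transcripts.

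The 9 members fall into 4 seed groups, and their mature sequences are printed because the groups had very different read numbers. Sequences and positions are RefSeq's for GRCr8, matched by miRNA name, which succeeded for all 9. They are written 5′ to 3′ with the seed in capitals. The first group has the seed AUUGCAC and holds the most abundant member of each cluster.
miR-92a-3p: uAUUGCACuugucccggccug
miR-25-3p: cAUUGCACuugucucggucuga
The second group has the seed AAAGUGC and holds 4 members.
miR-17-5p: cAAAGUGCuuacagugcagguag
miR-20a-5p: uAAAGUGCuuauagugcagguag
miR-106b-5p: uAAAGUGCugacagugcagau
miR-93-5p: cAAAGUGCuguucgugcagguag
The third group is miR-18a-5p alone, with the seed AAGGUGC.
miR-18a-5p: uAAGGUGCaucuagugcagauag
The fourth group has the seed GUGCAAA.
miR-19a-3p: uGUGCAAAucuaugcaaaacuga
miR-19b-3p: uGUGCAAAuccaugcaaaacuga

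The members differ little within a seed group. Positions are counted from 1 at the 5′ end of the first miRNA named. miR-92a-3p and miR-25-3p differ at 3 of 21 compared bases, as U1C, C14U and C18U. miR-17-5p and miR-20a-5p differ at 2 of 23, as C1U and C12U. miR-17-5p and miR-93-5p differ at 4 of 23, as U10G, A11U, C12U and A13C. miR-19a-3p and miR-19b-3p differ by U11C alone. Reads of such close relatives can be split between them in counting, and how the authors assigned ambiguous reads was not stated in the labels.

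In GRCr8 the mature miRNAs of miR-17-92 span 762 bases on chromosome 15, chr15:98587861-98588622 on the plus strand, in the order miR-17, miR-18a, miR-19a, miR-20a, miR-19b-1 and miR-92a-1. Those of miR-106b-25 span 472 bases on chromosome 12, chr12:22156652-22157123 on the minus strand, in the order miR-106b, miR-93 and miR-25, inside the gene Mcm7. miR-92a-3p lies at chr15:98588602-98588622 and, with an identical sequence, at chrX:137342945-137342965 in the paralogous miR-106a-363 cluster. miR-17-5p and miR-19b-3p also have an identical copy on chromosome X, at chrX:137343615-137343637 and chrX:137343070-137343092. A read of these 3 miRNAs therefore cannot be assigned to 1 of the loci. miR-20a-5p, miR-19a-3p and miR-18a-5p each have 1 locus.

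Depth was low and unequal. The untreated libraries held 2212 to 2338 miRNA reads each and 6774 together, and the nicorandil libraries 8426 to 16628 each and 41378 together, a 6.11-fold difference. These reads were recovered from the normalized values that the authors deposited. Where no read was found, up to 3 reads could still be expected, which sets an upper limit of 0.128% to 0.136% of an untreated library and 0.018% to 0.0356% of a nicorandil library. Such limits and the intervals of read shares and read ratios cover counting error only. They do not allow for several PCR reads from 1 molecule. They also leave out the spread between libraries, which in the nicorandil group exceeded sampling noise. Of the 763 miRNAs, 250 (32.8%) had a read in any library and 75 (9.83%) in all 6. All 10 mesenchymal marker miRNAs looked at had a read in some library. Together they took 27.4% ± 0.35 of untreated and 29.4% ± 2.91 of nicorandil miRNA reads (SD, n = 3). miR-143-3p gave 11754 of these 14288 reads. miR-31a-5p had 1 read, in nicorandil replicate 2, and miR-145-5p had no untreated read.

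The 9 members together took a small and similar share of both kinds of library. They had 8, 11 and 12 reads in the untreated libraries, 0.36%, 0.497% and 0.513% of all miRNA reads. In the nicorandil libraries they had 79, 91 and 33 reads, or 0.475%, 0.557% and 0.392%. The ranges of the groups overlapped. Of the 234 reads of all members, miR-92a-3p gave 58.1%, miR-25-3p 27.8% and miR-93-5p 10.3%. In such bulk libraries, fewer vesicles or cells that carry a miRNA and fewer copies in each cannot be told apart.

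**Figure D1:**
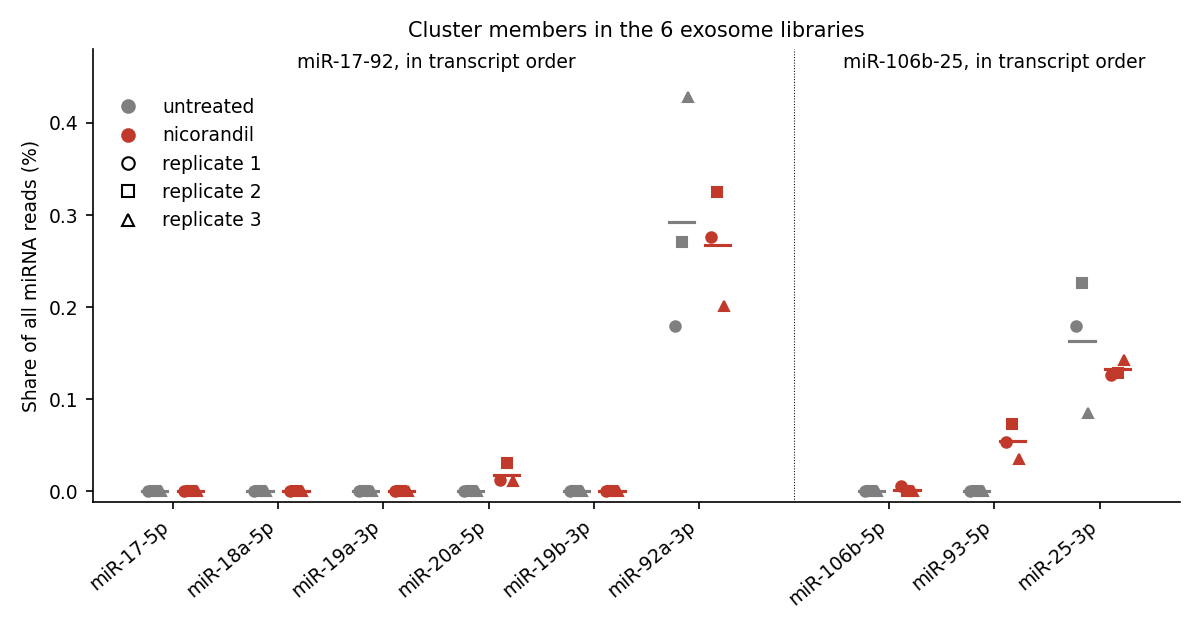
Share of all miRNA reads (vertical axis, percent) of each member in transcript order, with 1 point per library, the marker shape giving the replicate and a line at the mean of the 3 libraries. miR-92a-3p and miR-25-3p are above 0 in all 6 libraries, miR-20a-5p, miR-93-5p and miR-106b-5p only in nicorandil libraries, and 4 members are at 0 throughout.

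miR-92a-3p, known to restrain vessel growth in endothelial cells, was the most abundant member and the last hairpin of miR-17-92. It had 4, 6 and 10 reads in untreated libraries 1, 2 and 3, which the authors' normalization turned into 9.04, 13.3 and 19.1 normalized reads. In nicorandil libraries 1, 2 and 3 it had 46, 53 and 17 reads, or 17.1, 22.0 and 12.7 normalized reads. Untreated replicate 3 lay above nicorandil replicates 1 and 3, and the groups overlapped.

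The means of miR-92a-3p were 13.8 ± 5.05 and 17.3 ± 4.65 normalized reads in untreated and nicorandil exosomes (SD, n = 3). The log2 fold change on the log2(value + 1) scale was 0.33 (SE 0.35, 95% interval -0.40 to 1.06, limma adjusted p = 0.678), and it was -0.067 when library totals were the scale. The median log2 fold change of all 121 miRNAs tested was 0.23, and -0.12 with library totals, so miR-92a-3p lay 0.097 above the median of all. As a share, miR-92a-3p made up 0.18%, 0.271% and 0.428% of untreated libraries 1 to 3. For nicorandil libraries 1 to 3 the values were 0.277%, 0.325% and 0.202%. The mean share was 0.293% ± 0.125 in untreated and 0.268% ± 0.0619 in nicorandil libraries (SD, n = 3; two-sided exact permutation p = 0.9, and 1.0 adjusted over the 5 members tested in this way). The difference in share turned positive without untreated replicate 3 or nicorandil replicate 3, at 0.0421 and 0.00772 percentage points. The ratio of pooled shares, nicorandil over untreated, was 0.95 with an exact interval of 0.587 to 1.61.

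miR-92a-3p ranked 44 of the 121 tested miRNAs by mean normalized reads, at 15.5 over the 6 libraries. Its neighbours in that order were miR-28-3p at 16.5 and miR-152-3p at 15.6 above it, and miR-149-5p at 15.4 and miR-192-5p at 15.4 below it. Within each group the first 3 lay closer to the mean of miR-92a-3p than its SD, while miR-192-5p did not, with means of 21.4 normalized reads in untreated and 9.29 in nicorandil libraries. The tested miRNAs whose normalized reads followed it most closely over the 6 libraries were miR-221-3p, miR-184 and miR-702-3p, with Pearson correlations of log2(value + 1) of 0.88, 0.87 and 0.86. They are given as a description, since all values share the 6 libraries and their depths. miR-92a-3p correlated with miR-25-3p, its seed relative, at -0.37.

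The other 5 members of miR-17-92 were nearly absent. miR-17-5p and miR-18a-5p, the first hairpins of the transcript, and both miR-19 members, known as the main oncogenic part of the cluster, were without a read in all 6 libraries. For each of these 4 members the upper limit was 0.0443% of the pooled untreated and 0.00725% of the pooled nicorandil reads. With 116 reads in the pooled nicorandil libraries, miR-92a-3p had 38.7 times the 3 reads taken as a floor for each of them. In the pooled untreated libraries, with 20 reads, the same floor gave 6.67-fold. Neither ratio includes the counting error of miR-92a-3p itself, so neither is a lower bound.

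miR-20a-5p, in the middle of the transcript, had no read in the untreated libraries and 2, 5 and 1 reads in nicorandil libraries 1, 2 and 3. Its normalized reads there were 0.46, 2.36 and 0.7, with a mean over all 6 libraries of 0.59, under the minimum of 1 for testing. Its mean share of nicorandil reads was 0.0182% ± 0.0108 (SD, n = 3; two-sided exact permutation p = 0.1, the smallest that 3 against 3 libraries allow, and 0.25 adjusted over 5 members). At the nicorandil share 1.31 reads would fall in the pooled untreated libraries, so a difference was not detectable at this depth. In the nicorandil libraries miR-92a-3p had 14.5 times the reads of miR-20a-5p (exact interval 7.12 to 34.4), and it was higher in all 3.

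Of the 3 members with loci on both chromosomes 15 and X, miR-92a-3p had reads and miR-17-5p and miR-19b-3p had none. The part of gene copies in the members' levels was not tested. The other arms of the miR-17-92 hairpins were as sparse. miR-18a-3p had 2 reads, both in nicorandil replicate 2, while the opposite arm of each miR-17, miR-19a, miR-19b, miR-20a and miR-92a hairpin had none. From the miR-106a-363 cluster, whose transcript holds the second miR-92a copy, miR-363-3p had 1 read in nicorandil replicate 2, and miR-363-5p, miR-20b-5p and miR-20b-3p had none.

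The shorter cluster, miR-106b-25, had all 3 members detected. miR-25-3p, the seed relative of miR-92a-3p and the last hairpin of its transcript, had 4, 5 and 2 reads in untreated libraries 1, 2 and 3, or 7.74, 9.94 and 5.11 normalized reads. In the nicorandil libraries it had 21, 21 and 12 reads, or 7.61, 8.24 and 9.33 normalized reads. The nicorandil values lay within the untreated range.

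The means of miR-25-3p were 7.60 ± 2.42 and 8.39 ± 0.87 normalized reads in untreated and nicorandil exosomes (SD, n = 3). The log2 fold change was 0.16 (SE 0.42, 95% interval -0.73 to 1.05, limma adjusted p = 0.865), and -0.19 with library totals, -0.078 in DESeq2 and -0.062 without untreated replicate 3. Relative to the median of all tested miRNAs it was -0.068. Its mean share was 0.164% ± 0.0716 of untreated and 0.132% ± 0.00871 of nicorandil reads (SD, n = 3; two-sided exact permutation p = 0.6, adjusted p = 1.0). The ratio of pooled shares was 0.804, with an exact interval of 0.415 to 1.70. The miRNAs most alike over the 6 libraries were let-7d-3p, miR-361-3p and miR-199a-5p, with Pearson correlations of 0.92, 0.89 and 0.86.

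miR-93-5p, from the middle hairpin of miR-106b-25 and with the seed of miR-17-5p, was the 1 member past the threshold. It had no read in any untreated library and 9, 12 and 3 reads in nicorandil libraries 1, 2 and 3, or 3.16, 5.24 and 2.14 normalized reads. All 3 nicorandil libraries were thus above all 3 untreated ones. Its limma adjusted p was 0.0289, and 0.118 when all 250 miRNAs with a read were fitted without the filter. The fitted log2 fold change of 2.12 (SE 0.66) depends on the pseudocount of 1 and is not a bound. Of all tested miRNAs 14.0% were called higher, and 17.4% were higher without overlap between the groups. miR-93-5p reached the minimum mean of 1 through the nicorandil libraries alone, so its separation is partly built into the filter and its call is given as a description.

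The difference in miR-93-5p rests on 24 reads against 0. On the TMM scale, on which the authors' values were computed, the nicorandil level was 1.80-fold the level that 3 reads over the untreated group would give, and with library totals 1.31-fold. The exact interval of the nicorandil to untreated ratio had a lower end of 1.35 on the TMM scale and of 0.985 with library totals, the latter below 1. Its share was 0.0541%, 0.0735% and 0.0356% of the nicorandil reads, all below the 0.128% to 0.136% that 0 reads allow in a single untreated library. Pooled, it took 0.058% of nicorandil reads (95% Wilson interval 0.039% to 0.0863%), against an untreated limit of 0.0443%, and 3.93 untreated reads would be found at that share. The two-sided exact permutation p of its shares was 0.1, the smallest possible, and 0.25 adjusted over 5 members.

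The call ended under 13 of the 18 other settings that gave an adjusted p for miR-93-5p. Among them, library totals gave a log2 fold change of 1.95 (limma adjusted p = 0.0565) and limma-voom 1.89 (adjusted p = 0.147). It also ended without untreated replicate 1, 2 or 3 (limma adjusted p = 0.0771, 0.0817 and 0.0547) and without nicorandil replicate 2 (0.0763). In the authors' deposited table miR-93-5p has a log2 fold change of 5.32 with an unadjusted p of 0.00763. The same table gives 0.35 (unadjusted p of 0.45) for miR-92a-3p and 0.14 (unadjusted p of 0.893) for miR-25-3p. For miR-20a-5p and miR-106b-5p, also without an untreated read, it gives 3.81 (unadjusted p of 0.13) and 1.38.

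Reads in nicorandil libraries only were common: 104 of the 250 miRNAs with a read (41.6%) had none in the shallower untreated libraries, among them miR-93-5p, miR-20a-5p and miR-106b-5p. A read in all 3 nicorandil and no untreated library was found for 11 of the 250 (4.40%), including miR-93-5p and miR-20a-5p. The tested miRNAs most like miR-93-5p over the 6 libraries were miR-145-5p, miR-99a-5p and miR-143-3p, with Pearson correlations of 0.99, 0.96 and 0.96. Since miR-93-5p had no untreated read, these correlations in large part follow the difference between the groups and are given as a description. miR-145-5p and miR-143-3p are mesenchymal and smooth muscle miRNAs of a shared cluster. miR-145-5p too had no untreated read, so it also reached the minimum mean through the nicorandil libraries alone.

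**Figure D2:**
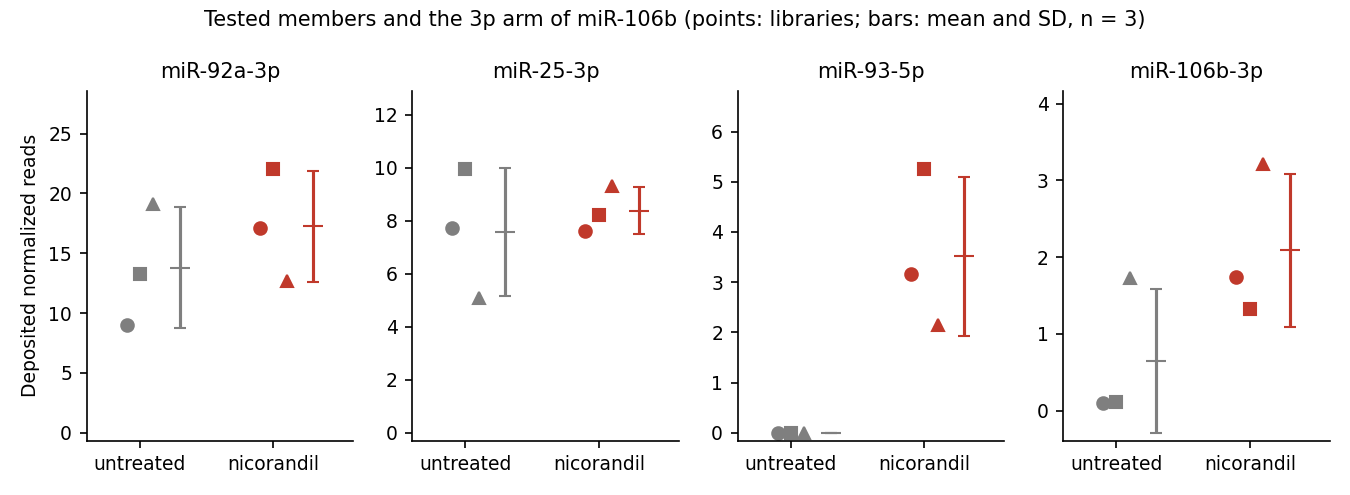
Deposited normalized reads (vertical axis, a separate scale per panel) of the 3 tested members and of miR-106b-3p, with 1 point per library and the mean and SD of the 3 libraries beside them. The groups overlap for miR-92a-3p, miR-25-3p and miR-106b-3p, and miR-93-5p is at 0 in the untreated libraries and between 2.14 and 5.24 in the nicorandil libraries.

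miR-106b-5p, the first hairpin's 5p arm and the miRNA that names the cluster, had 1 read, in nicorandil replicate 1. The 3p arm of the same hairpin, miR-106b-3p, had 14 reads. Its sequence carries a different seed, CGCACUG, from the 5p arm and is printed because this arm held the hairpin's reads.
miR-106b-3p: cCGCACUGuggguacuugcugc
Untreated libraries 1 to 3 held 0, 0 and 1 of its reads, and nicorandil libraries 1 to 3 held 5, 4 and 4, which is 0.64 ± 0.94 and 2.09 ± 0.99 normalized reads (SD, n = 3). Its log2 fold change of 1.00 (SE 0.69) did not pass (limma adjusted p = 0.42), and untreated replicate 3 lay within the nicorandil range. The opposite arms miR-93-3p and miR-25-5p had no read, so miR-106b was the 1 hairpin of its cluster in which the arm outside the member list had reads.

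Within miR-106b-25 the order of levels was miR-25-3p, miR-93-5p and miR-106b-5p. In the nicorandil libraries miR-25-3p had 2.25 times the reads of miR-93-5p (exact interval 1.37 to 3.81), and their normalized reads did not overlap. Against miR-106b-5p, with its 1 read, the ratio was 54.0 (exact interval 9.29 to 2172). Over both clusters the order was miR-92a-3p, miR-25-3p, miR-93-5p, miR-20a-5p and miR-106b-5p. miR-92a-3p and miR-25-3p overlapped in the untreated libraries and did not in the nicorandil libraries. miR-93-5p and miR-20a-5p overlapped in the nicorandil libraries. Mature lengths were 21 to 23 bases, so read numbers were compared between members without a correction for length. These comparisons are of reads, and whether library preparation captured the different sequences equally was not tested.

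Grouped by seed, the reads fell mostly on 1 group. The table lists 5 miRNAs with the seed AUUGCAC, and all 5 had reads: miR-92a-3p with 136, miR-25-3p with 65, miR-92b-3p with 5, miR-32-5p with 4 and miR-363-3p with 1. This group took 0.405%, 0.497% and 0.513% of untreated and 0.433%, 0.466% and 0.368% of nicorandil reads, with overlapping ranges, and 95.3% of its reads were miR-92a-3p and miR-25-3p.

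The seed AAAGUGC is also shared by 5 listed miRNAs, and 3 of them had reads: miR-93-5p with 24, miR-20a-5p with 8 and miR-106b-5p with 1. This group had no untreated read and 33 nicorandil reads, at 0.0722%, 0.104% and 0.0475% of the libraries. At the pooled nicorandil share, 5.40 reads of this group would be found in the untreated libraries. The remaining seed groups, miR-18 and miR-19, were without reads. Within the AAAGUGC group miR-17-5p and miR-20b-5p had no read, while miR-93-5p, miR-20a-5p and miR-106b-5p did.

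**Figure D3:**
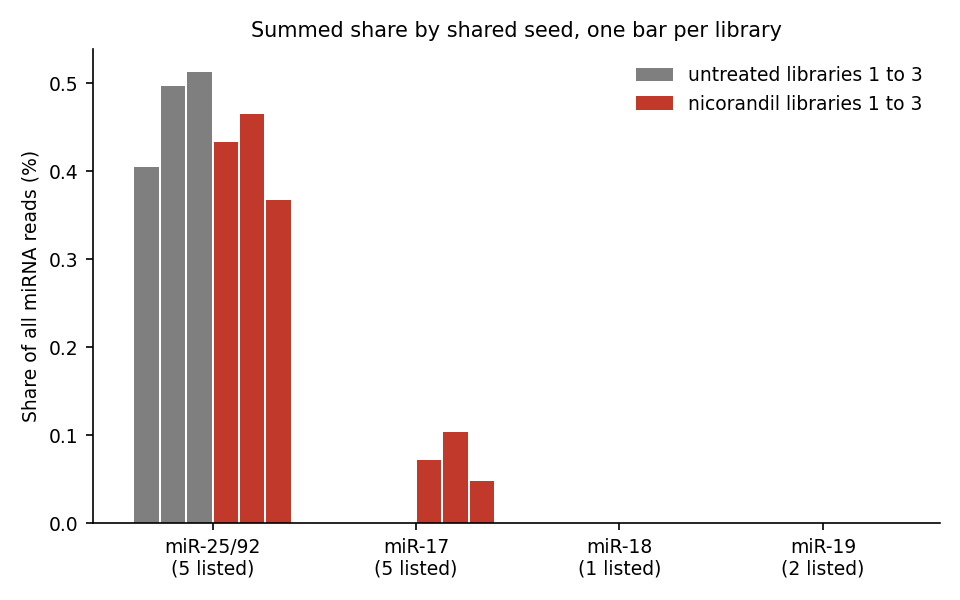
Summed share of all miRNA reads (vertical axis, percent) of all listed miRNAs with each member seed, 1 bar per library. The AUUGCAC group (miR-25/92) lies between 0.368% and 0.513% in all 6 libraries, the AAAGUGC group (miR-17) at 0 in the untreated and up to 0.104% in the nicorandil libraries, and the miR-18 and miR-19 groups at 0.

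Base composition followed the members' order in part. The 3 members with the most reads had the highest GC contents, 57.1% for miR-92a-3p, 50.0% for miR-25-3p and 52.2% for miR-93-5p. The 4 members without a read had 47.8% (miR-17-5p), 43.5% (miR-18a-5p), 39.1% (miR-19b-3p) and 34.8% (miR-19a-3p). miR-20a-5p and miR-106b-5p, with few reads, had 39.1% and 42.9%, below miR-17-5p. Among the 686 listed miRNAs with a RefSeq sequence the median GC content was 47.8% for those with a read and 47.6% for those without. A read was found for 25.6% of the 133 miRNAs under 40% GC, 34.6% of the 234 between 40% and 50%, and 34.8% of the 319 at 50% or more. The part of base composition in the members' order was not tested.

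Among all miRNAs tested, 17 of 121 were higher (14.0%) and 9 lower (7.44%) after nicorandil (limma, adjusted p under 0.05; 21.5% in all). miR-92a-3p and miR-25-3p lay near the median of this distribution and miR-93-5p above it.

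**Figure D4:**
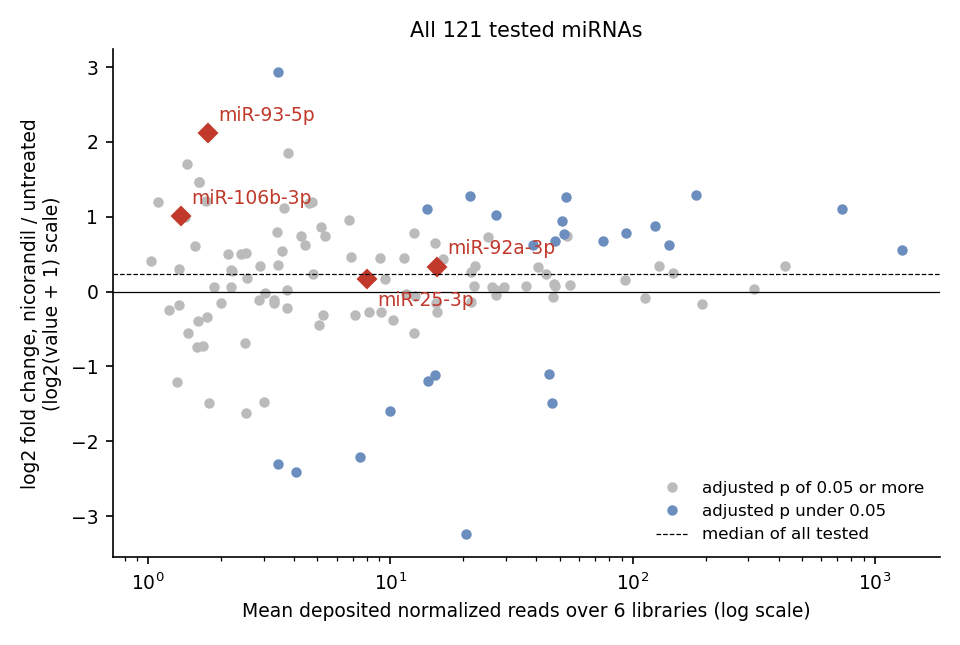
log2 fold change (vertical axis, log2(value + 1) scale) against mean normalized reads (horizontal log axis) for the 121 tested miRNAs, with the called miRNAs in blue and the 3 tested members and miR-106b-3p as red diamonds. miR-92a-3p and miR-25-3p lie beside the dashed median of 0.23, and miR-93-5p at 2.12 is among the miRNAs with the fewest reads.

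Markers of other cell types differed between the same libraries. Blood cell miRNAs are given because miR-92a-3p, miR-25-3p and miR-93-5p are also abundant in red blood cells. Of 8 listed blood markers 6 had reads, together 0.678% to 0.854% of untreated and 0.263% to 0.415% of nicorandil reads. The tested blood markers did not move alike. In the fit of the deposited values the log2 fold change of miR-486 was -1.20 (limma adjusted p = 0.0238). For miR-451-5p it was -0.27 (adjusted p = 0.835) and for miR-142-5p 0.36 (adjusted p = 0.86). Liver and gut markers, 3 of 3 with reads, took 1.44% to 2.61% and 0.463% to 0.617%. Endothelial markers, 1 of 2 with reads, took 0.181% to 0.36% and 0.0301% to 0.0356%, and epithelial markers, 5 of 5, took 0.181% to 0.385% and 0.0119% to 0.0301%. Each of these sums was lower in every nicorandil library than in every untreated one. The ranges of miR-92a-3p and of miR-25-3p overlapped, and miR-93-5p had reads in nicorandil libraries only. The part of these cell types in the members' values was not tested.

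A change of scale between libraries moved these members together with the median of all miRNAs. From the deposited values to library totals miR-92a-3p went from 0.33 to -0.067 and miR-25-3p from 0.16 to -0.19 on the log2 scale, while the median of all tested went from 0.23 to -0.12. miR-93-5p had no untreated read, so its log2 fold change could only be positive, whatever the setting. Its size was 0.43 with a pseudocount of 10 and 5.09 with a pseudocount of 0.1.

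**Figure D5:**
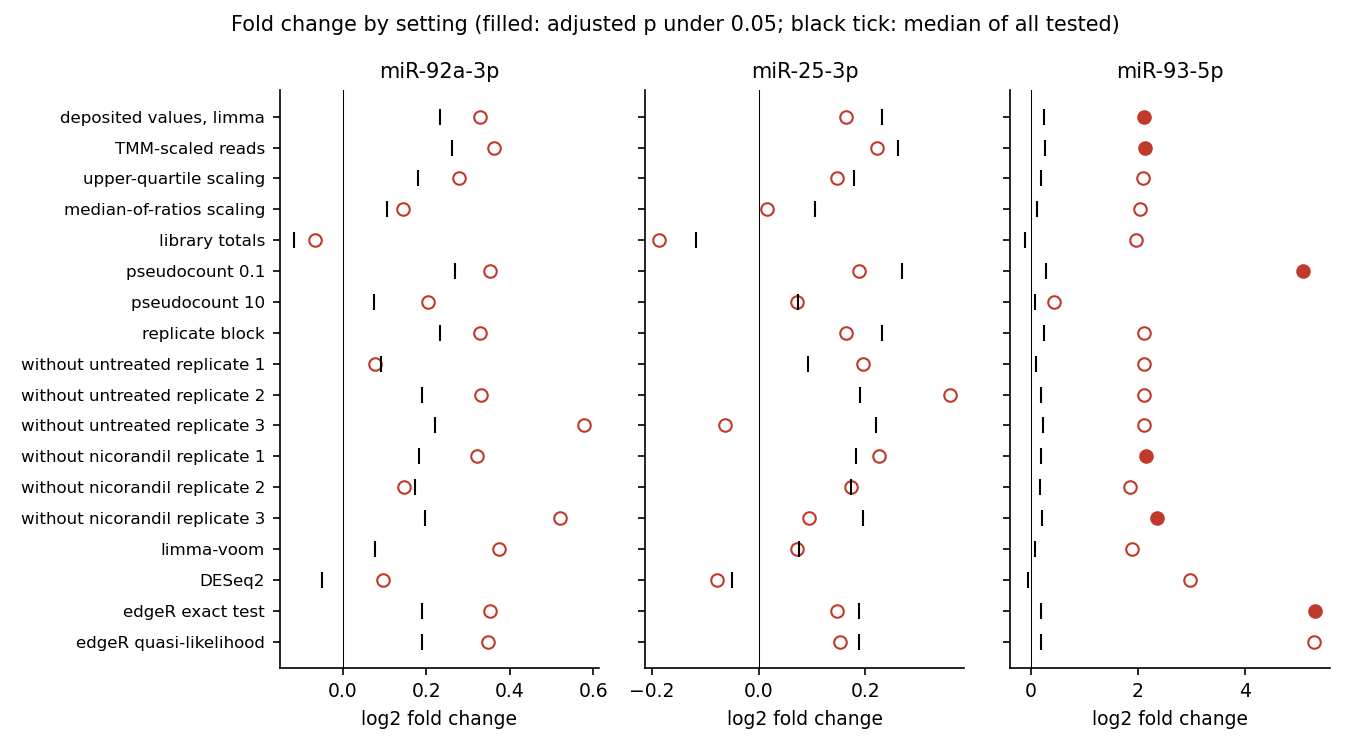
log2 fold change (horizontal axis, a separate scale per panel) of the 3 tested members under a selection of the settings (rows). Points are filled where the adjusted p was under 0.05, and a black tick marks the median of all tested miRNAs. miR-92a-3p and miR-25-3p stay unfilled. They move with the tick between the scalings but not in every row. Without untreated replicate 3 they lie at 0.58 and -0.062, with the tick at 0.22. miR-93-5p is filled in the upper rows for deposited values and TMM-scaled reads and unfilled in most others. Its DESeq2 point is unfilled because DESeq2 gave it no adjusted p.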

How the data were processed

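Small RNA of exosomes isolated with a commercial reagent was sequenced single-end on a HiSeq instrument, per the labels' protocols. FastQC, Bowtie and edgeR were used per the submitters' processing notes, and neither versions nor the genome build were stated there. The authors deposited a normalized read signal per library, and, per the file headers, also a log2 fold change and a p-value for each miRNA. The signal has the form of edgeR pseudo-counts. Inverting that formula (dispersion 0.0272) gave whole reads for 100% of the 763 miRNAs at a relative tolerance of 1e-05, and the recomputed signal differed by at most 4.8e-07.

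limma 3.58.1 (R 4.3.3) with an intensity trend was fitted to log2(value + 1) of the 121 miRNAs that reached a mean of 1, without covariates, with Benjamini-Hochberg adjustment over all 121 and a threshold of 0.05. The fit was tested on simulated data. edgeR 4.0.16 and DESeq2 1.42.0 were run on the recovered reads as alternatives, with other scalings, filters, pseudocounts and left-out libraries. Shares of reads were compared by exact permutation. Untreated replicates 1 and 2 differed by no more than sampling noise (chi-square p = 0.617, against 0.174 and 0.0121 for the other untreated pairs). Their reads were not identical, so they were kept as separate libraries and averaged in an added alternative. The nicorandil pairs all differed by more than sampling noise (chi-square p = 5.15e-13, 1.83e-55 and 6.52e-58). The members, the related miRNAs, the marker lists and the rule for miRNAs alike (the 3 with the highest correlation) were chosen with earlier results of these data known.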

Additional observations from a re-analysis of the deposited data

How the results depend on the processing

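Against 26 called miRNAs (17 higher and 9 lower), DESeq2 called 14 (5 and 9), upper-quartile scaling 13 (6 and 7), median-of-ratios scaling 15 (6 and 9) and scaling by library totals 15 (4 and 11). After filterByExpr, which kept 55 miRNAs, the quasi-likelihood test of edgeR called 13 (7 and 6). Leaving out 1 library gave 11 to 21, the fewest without nicorandil replicate 2. limma-voom called 9 higher and 10 lower. miR-93-5p lost its call with median-of-ratios scaling (log2 fold change 2.04), library totals (1.95), upper-quartile scaling (2.10), no filter (2.12), a pseudocount of 10 (0.43), limma-voom (1.89), edgeR's quasi-likelihood test on the same miRNAs (5.29) and untreated replicates 1 and 2 averaged (2.12, added after seeing the data). Leaving out 1 library gave 1.86 to 2.35. It kept its call with TMM-scaled reads, a pseudocount of 0.1, edgeR's exact test, and without nicorandil replicate 1 or 3. DESeq2 gave it no adjusted p, and with a minimum mean of 10 or filterByExpr it was not tested. With the replicate number as a block its log2 fold change was 2.12 and its call ended (limma adjusted p = 0.0634), while 26 miRNAs were called. Deviations from the group means correlated at 0.00883, 0.0437 and -0.03 between same-numbered libraries. With so few untreated reads, these correlations cannot decide whether the numbers pair the libraries.

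miR-92a-3p turned to -0.067 with library totals and ranged from 0.078 to 0.58 with 1 library left out. miR-25-3p turned to -0.19 with library totals and -0.078 with DESeq2, and ranged from -0.062 to 0.36 with 1 library left out. Neither was called under any setting run. The share difference of miR-92a-3p, -0.0252 percentage points, ranged from -0.0818 to 0.0421 with 1 library left out, and that of miR-106b-5p, which has 1 read, from 0 to 0.00301. Depth limits the untreated values: a member without a read there may be absent or present at up to about 3 expected reads over that group.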
